A study of Mus musculus with 12 samples.

Results

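Fatty acid uptake and binding was described through 10 genes, namely *Lpl*, *Gpihbp1*, *Angptl4*, *Vldlr*, *Cd36*, *Slc27a1*, *Slc27a2*, *Fabp3*, *Fabp4* and *Fabp5*. They were chosen by name for their roles, and all 10 were among the 14159 genes with a deposited value and among the 13404 genes tested. The values came from polyadenylated RNA of whole inguinal white adipose tissue (iWAT) of mice on the C57BL/6 background, with 12 libraries in 4 groups of 3 biological replicates numbered from 0. Atf4WT mice carried floxed *Atf4* alleles (Atf4 fl/fl) and no Cre, and Atf4AKO mice carried the floxed alleles and Adipoq-Cre, which is active in cells that express adiponectin. Either genotype was kept at room temperature (RT) or exposed to cold for 24 h. The Cre acts in adipocytes, so the other cells of the tissue keep the gene, and in whole tissue fewer cells of a type and less RNA per cell cannot be told apart. The age of the sequenced mice is not given in the sources used here.

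Fat cells take up fatty acids in steps. Lipoprotein lipase (*Lpl*) frees fatty acids from triglyceride-rich lipoproteins at the capillary wall, where GPIHBP1 of the endothelium holds it, ANGPTL4 inactivates it and the VLDL receptor binds the lipoproteins themselves. CD36 and the fatty acid transport proteins (FATP1 from *Slc27a1*, FATP2 from *Slc27a2*) act at the cell membrane, and the small fatty acid binding proteins (FABPs) carry fatty acids inside the cell. *Fabp4* is the abundant adipocyte form, *Fabp5* is also made by macrophages and endothelium, and *Fabp3* is the form of heart, skeletal muscle and brown fat.

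Cold exposure raised 4 of the 10 genes in Atf4WT iWAT and the same 4 in Atf4AKO iWAT. These were *Fabp3*, *Slc27a2*, *Slc27a1* and *Fabp5*, so the genes that rose were 2 of the 3 FABP genes and both FATP genes among the 10. None of the 10 fell. Of all 13404 genes tested, 17% were called higher and 14.9% lower by cold exposure in Atf4WT mice, and 14.8% and 11% in Atf4AKO mice, where a call is an adjusted p-value under 0.05. The genes that act on lipoproteins at the vessel wall (*Lpl*, *Gpihbp1*, *Angptl4* and *Vldlr*), *Cd36* and *Fabp4* did not pass the test in either genotype, and no gene of the 10 passed it between the genotypes at RT or after cold exposure, where 0.00746% and 0.0298% of all tested genes passed.

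Values are normalized counts, which are the reads of a gene divided by the size factor of its library. The libraries held 25719476 to 29105147 reads on the 14159 genes. Differences were tested with limma on log2(normalized count + 1), and p-values were adjusted over the 13404 genes after Benjamini and Hochberg. *Atf4* itself was 4815 ± 791 (SD, n = 3) at RT and 6970 ± 1054 after cold exposure in Atf4WT mice, and 1568 ± 87.9 and 1182 ± 395 in Atf4AKO mice, without overlap between the genotypes. Several libraries stood apart. The summed count of 20 skeletal muscle genes was 181306 in Atf4WT RT replicate 2, 61064 in Atf4WT cold replicate 0 and 8840 in Atf4AKO cold replicate 1, against 1956 to 3060 in the other 9 libraries. The lymphocyte score, an average of log2 values over 19 markers of B and T cells, was 7.28 to 9.70 in cold Atf4WT and 3.47 to 4.97 in cold Atf4AKO libraries. At RT it was 7.12 in Atf4WT replicate 2, the library with the highest muscle sum, and 3.84 to 5.26 in the other libraries. In Atf4WT iWAT, 9 of 9 B cell and 10 of 10 T cell markers were called higher after cold exposure. The macrophage sum was 6018 in Atf4AKO cold replicate 1 and 15041 in Atf4WT cold replicate 1, against 27190 to 50156 in the other libraries. The defining adipocyte marker *Adipoq* was 87909 to 98864 at RT and 55500 to 69900 after cold exposure in Atf4WT mice, which is −0.60 on the log2 scale (adjusted p = 0.0148), and 84587 to 108458 and 68025 to 85395 in Atf4AKO mice, where it was −0.36 (adjusted p = 0.119). Of 10 white adipocyte genes, 2 were called lower by cold exposure in Atf4WT and 0 in Atf4AKO mice.

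**Figure D1:**
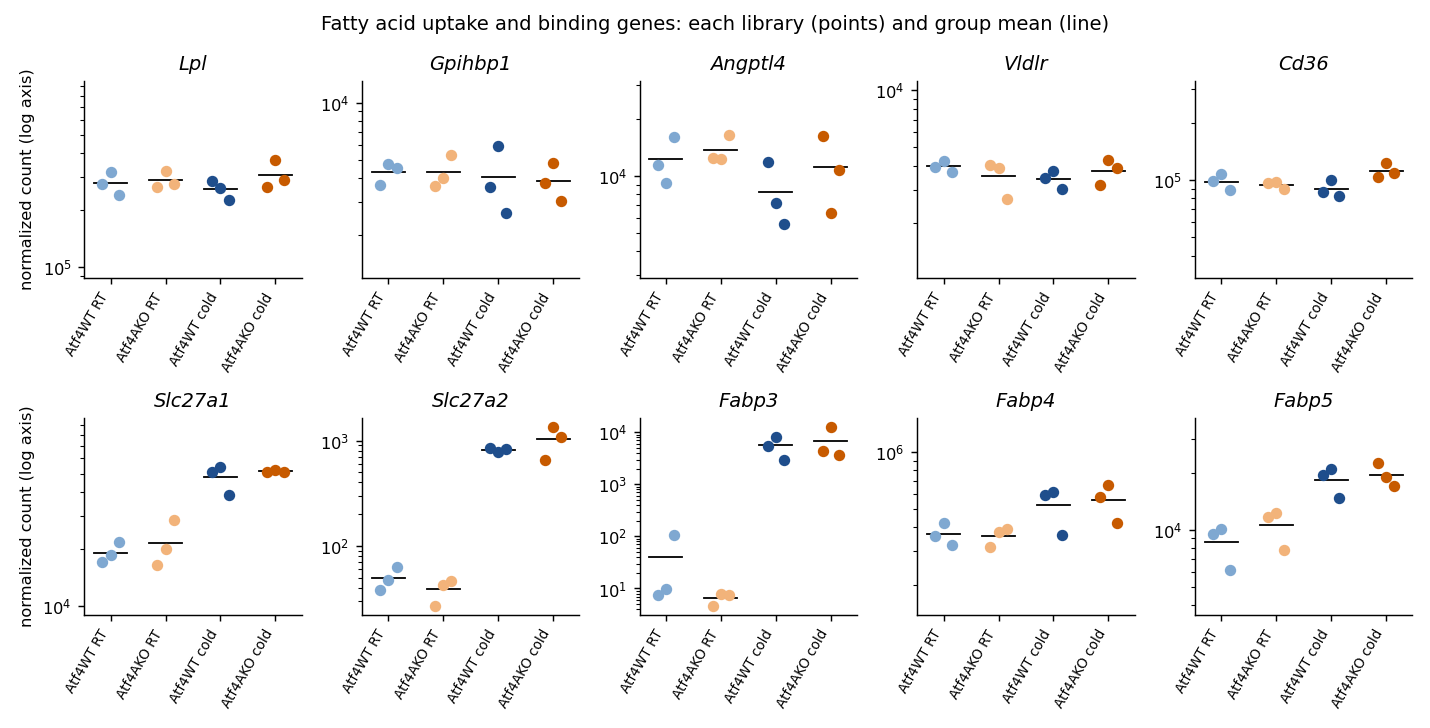
Normalized counts (log axis) of the 10 genes in each of the 12 libraries, with points for libraries (replicates 0, 1 and 2 from left to right) and black lines for the group means. *Fabp3*, *Slc27a2*, *Slc27a1* and *Fabp5* lay higher in all cold libraries than in the RT libraries of the same genotype, and *Fabp3* of Atf4WT RT replicate 2 lay at 106, above the other RT libraries.

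*Fabp3* (NM_010174, chromosome 4, 130308595 to 130315463 of mm10, plus strand) had the largest change of the 10 genes. Its counts were 7.35, 9.62 and 106 in Atf4WT mice at RT and 5540, 8263 and 2949 after cold exposure. In Atf4AKO mice they were 4.65, 7.97 and 7.42 at RT and 4451, 12806 and 3599 after cold exposure. Each cold library was far above each RT library, and Atf4WT RT replicate 2 was the single RT library above 10 counts. The rise was 7.92 on the log2 scale (standard error 0.84, adjusted p = 0.000121, limma) in Atf4WT and 9.61 (adjusted p = 5.07e-05) in Atf4AKO mice. The RT values rested on 5 to 10 reads in 5 libraries and on 114 reads in Atf4WT RT replicate 2, so the size of the fold change depends on the pseudocount, and with a pseudocount of 5 it was 7.56 and 8.99.

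Because *Fabp3* is also a muscle gene, its level was set beside the muscle markers of each library. Atf4WT RT replicate 2 had 12.5 times the mean *Fabp3* count of the other Atf4WT RT libraries, together with the highest muscle sum. Its ratio was 5.83 *Fabp3* counts per 10000 muscle counts. In Atf4WT cold replicate 0, which had the second highest muscle sum, the ratio was 907, and in cold libraries with a low muscle sum it was between 12404 and 33907. Cold replicates 1 and 2 of Atf4WT mice had muscle sums of 2437 and 2378, within the range of the RT libraries other than replicate 2, and *Fabp3* counts of 8263 and 2949. The lowest cold value was thus 27.9 times the value of the RT library rich in muscle genes. Without Atf4WT RT replicate 2, the ratio of the Atf4WT cold mean to the RT mean rose from 137 to 658, and the log2 fold change was 9.09 (adjusted p = 1.34e-05, limma). Without the 3 libraries of highest muscle score it was 9.03 in Atf4WT and 9.05 in Atf4AKO mice. The adjusted p-values were then 4.21e-05 and 9.99e-06. Of the defining muscle genes, *Acta1* was 35541 in Atf4WT RT replicate 2, 13734 in Atf4WT cold replicate 0 and 1314 in Atf4AKO cold replicate 1. *Acta1* was 38.0 and 42.4 in Atf4WT cold replicates 1 and 2 and 390 and 789 in Atf4WT RT replicates 0 and 1. In the other libraries it was 11.7 to 256. *Mb* was between 5.31 and 29.7 in the 12 libraries. *Mb* did not follow the muscle sum, at 13.4 in Atf4WT cold replicate 0 and 20.4 in Atf4AKO cold replicate 2. The sum covers 20 of 30 chosen markers, as the rest, *Ckm* and *Myh4* among them, have no deposited value.

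**Figure D2:**
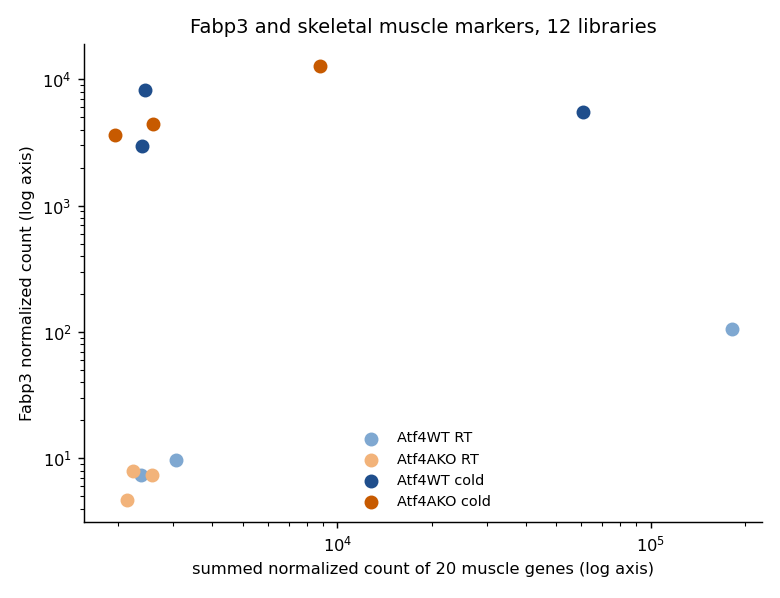
*Fabp3* normalized count against the summed normalized count of 20 skeletal muscle genes in each of the 12 libraries (both axes log), coloured by group. The 6 cold libraries lie between 2949 and 12806 *Fabp3* counts at muscle sums from 1956 to 61064, and the RT library with a muscle sum of 181306 lies at 106.

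*Slc27a2* (NM_011978, chromosome 2, 126552407 to 126588243, plus strand) encodes FATP2, a transport protein and very long chain acyl-CoA synthetase best known from liver and kidney. Its counts in Atf4WT mice were 37.7, 47.2 and 63.0 at RT and 854, 775 and 827 after cold exposure. In Atf4AKO mice they were 27.0, 42.8 and 46.4 at RT and 657, 1354 and 1086 after cold exposure. The lowest cold library was 12.3 times the highest RT library in Atf4WT and 14.2 times in Atf4AKO mice. On the log2 scale the rise was 4.06 (standard error 0.28, adjusted p = 1.92e-05) and 4.68 (adjusted p = 8.69e-06). *Slc27a2* was thus the second largest change, and the replicates of the cold Atf4WT group lay within 1.10-fold of each other.

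*Slc27a1* (NM_001357180, chromosome 8, 71568882 to 71587302, plus strand) encodes FATP1, the transport protein of adipocytes and muscle. In Atf4WT mice its counts were 17071, 18626 and 21806 at RT and 50671, 53852 and 38498 after cold exposure. In Atf4AKO mice they were 16479, 19936 and 28416 at RT and 50801, 51998 and 50959 after cold exposure. The cold groups lay above the RT groups without overlap, and the 3 cold Atf4AKO libraries differed by 1.02-fold. The log2 fold changes were 1.31 (standard error 0.19, adjusted p = 0.000796) and 1.28 (adjusted p = 0.00107), which are 2.47-fold and 2.43-fold.

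*Fabp5* (NM_001272098, chromosome 3, 10012548 to 10016607, plus strand) had 9551, 10062 and 6142 counts in Atf4WT mice at RT and 19405, 20803 and 14769 after cold exposure. In Atf4AKO mice the counts were 11661, 12296 and 7817 at RT and 22584, 18849 and 16992 after cold exposure. Cold and RT libraries did not overlap in either genotype. The log2 fold changes were 1.11 (standard error 0.23, adjusted p = 0.00420) and 0.90 (adjusted p = 0.0145). In Atf4AKO mice the call depended on 1 library, as the log2 fold change was 0.69 (adjusted p = 0.0501) without Atf4AKO RT replicate 2. Macrophage content varied between libraries as given above, and the part of other cell types in the change was not tested.

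*Fabp4* (NM_024406, chromosome 3, 10204088 to 10208576, minus strand), which lies 187481 bases from *Fabp5*, did not pass the test. Its counts in Atf4WT mice were 362590, 423675 and 322019 at RT and 589743, 618044 and 366938 after cold exposure. In Atf4AKO mice they were 314385, 376729 and 390694 at RT and 577944, 667137 and 423277 after cold exposure. In both genotypes cold replicate 2 lay below the other cold libraries, and in Atf4WT mice it overlapped with the RT libraries. The log2 fold change was 0.48 (95% interval −0.25 to 1.20, adjusted p = 0.292) in Atf4WT and 0.61 (−0.12 to 1.33, adjusted p = 0.200) in Atf4AKO mice. DESeq2 on the recovered reads called *Fabp4* in both genotypes, at 0.51 on the log2 scale in Atf4WT (adjusted p = 0.0490) and 0.62 in Atf4AKO mice (adjusted p = 0.0155).

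The median log2 fold change of the 10 genes was 0.19 in Atf4WT and 0.42 in Atf4AKO mice, beside 0.00 and −0.03 over all tested genes. The 4 calls in each genotype were also made by edgeR and DESeq2 on the recovered reads and with the lymphocyte score or the muscle score as a covariate. Adjusted for lymphocytes in this way, the log2 fold change of *Fabp3* in Atf4WT mice was 6.23 (adjusted p = 0.0106) and that of *Slc27a1* had an adjusted p of 0.0314. In Atf4WT mice the score was 3.84 to 7.12 at RT and 7.28 to 9.70 after cold exposure, without overlap. The covariate thus cannot fully separate lymphocyte content from cold exposure in this genotype.

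**Figure D3:**
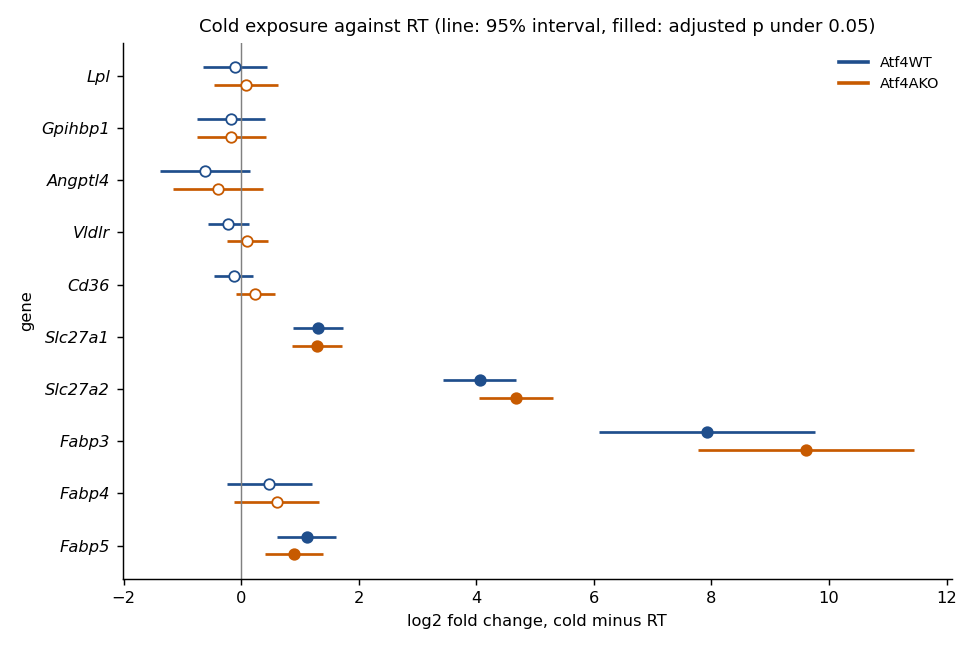
Log2 fold change of the 10 genes between cold exposure and RT in Atf4WT (blue) and Atf4AKO (orange) iWAT, with points for the limma estimate, lines for its 95% interval and filled points for adjusted p-values under 0.05. The intervals of *Slc27a1*, *Slc27a2*, *Fabp3* and *Fabp5* lie above 0 in both genotypes, and those of the other 6 genes include 0.

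Of the genes that act at the vessel wall, *Lpl* (NM_008509, chromosome 8, 68880491 to 68907448, plus strand) was between 227577 and 369691 in the 12 libraries, and its group means were 277974 ± 38745 and 257970 ± 28247 at RT and after cold exposure in Atf4WT mice and 287805 ± 31056 and 307483 ± 55072 in Atf4AKO mice. The groups overlapped. The log2 fold change with cold exposure was −0.10 (95% interval −0.65 to 0.44) in Atf4WT and 0.09 (−0.46 to 0.63) in Atf4AKO mice, with adjusted p-values of 0.776 and 0.825.

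*Gpihbp1* (NM_026730, chromosome 15, 75596628 to 75599481, plus strand) was between 2629 and 5888, and both of these values came from cold Atf4WT libraries. The log2 fold change was −0.17 (−0.75 to 0.41) in Atf4WT and −0.17 (−0.75 to 0.42) in Atf4AKO mice. The summed count of 17 capillary endothelium genes was 64345 to 67973 in Atf4WT mice at RT and 42868 to 57146 after cold exposure, and 61550 to 63665 and 48171 to 52438 in Atf4AKO mice. Of these 17 genes, 5 were called lower and 0 higher in Atf4WT mice and 2 lower and 1 higher in Atf4AKO mice. The part of endothelial content in the level of *Gpihbp1* was not tested. The gene lies 4655703 bases from *Atf4* on the same chromosome, and its mean at RT was 4321 in Atf4WT and 4322 in Atf4AKO mice.

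*Angptl4* (NM_020581, chromosome 17, 33773750 to 33781830, minus strand), which encodes the inhibitor of lipoprotein lipase that fasting induces in fat, had the widest range over the 12 libraries among the genes that did not pass, at 1.55 on the log2 scale. Its counts in Atf4WT mice were 11409, 9134 and 16080 at RT and 11822, 7159 and 5581 after cold exposure. In Atf4AKO mice they were 12426, 12260 and 16379 at RT and 16234, 6386 and 10703 after cold exposure. The highest cold library was 2.12 times the lowest in Atf4WT and 2.54 times in Atf4AKO mice. The log2 fold changes were −0.61 (−1.37 to 0.16, adjusted p = 0.204) and −0.39 (−1.15 to 0.37, adjusted p = 0.434).

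*Vldlr* (NM_001347441, chromosome 19, 27216484 to 27254231, plus strand) was between 2688 and 4272 in the 12 libraries. Its log2 fold change was −0.22 (−0.57 to 0.13) in Atf4WT and 0.10 (−0.25 to 0.45) in Atf4AKO mice.

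*Cd36* (NM_001159558, chromosome 5, 17781690 to 17888801, minus strand) had 98395, 106983 and 88358 counts in Atf4WT mice at RT and 86776, 100280 and 81901 after cold exposure. In Atf4AKO mice the counts were 96037, 97886 and 89151 at RT and 103330, 123441 and 108626 after cold exposure. The cold Atf4AKO libraries lay above both the RT Atf4AKO and the cold Atf4WT libraries, with the lowest at 1.06 and 1.03 times the highest of these groups. Neither difference passed the test, and the share of all tested genes with such a separation was not counted. The log2 fold change was −0.13 (−0.47 to 0.21, adjusted p = 0.552) in Atf4WT and 0.24 (−0.10 to 0.58, adjusted p = 0.268) in Atf4AKO mice.

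Levels of different genes were compared per kb, as the normalized count divided by the length of the exons of protein-coding transcripts in GENCODE. In Atf4WT iWAT at RT the order was *Fabp4* at 412308 ± 57112 (SD, n = 3) counts per kb, *Lpl* at 67551 ± 9416, *Cd36* at 27273 ± 2597, *Fabp5* at 8698 ± 2159, *Slc27a1* at 6233 ± 785, *Angptl4* at 3690 ± 1071, *Gpihbp1* at 2062 ± 261, *Vldlr* at 478 ± 34.1, *Fabp3* at 49.7 ± 68.2 and *Slc27a2* at 16.4 ± 4.26. *Fabp5* and *Slc27a1* overlapped, as did *Fabp3* and *Slc27a2*, and the other neighbours in this order did not. The order of the last 2 genes rested on Atf4WT RT replicate 2, since without it *Fabp3* was at 10.3 and *Slc27a2* at 14.1 counts per kb, and in Atf4AKO mice at RT they were at 8.11 ± 2.16 and 12.9 ± 3.44. After cold exposure *Fabp3* stood sixth, at 6785 ± 3229 counts per kb in Atf4WT and 8447 ± 6181 in Atf4AKO mice. In Atf4AKO mice it overlapped with *Angptl4*, the next gene. *Slc27a2* was last at 272 ± 13.3 and 343 ± 117, and it overlapped with *Vldlr* in Atf4AKO mice. *Fabp3* thus went from below *Vldlr* to a level below *Slc27a1*, which was 15504 ± 2636 counts per kb in cold Atf4WT mice.

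Within the summed level of *Fabp3*, *Fabp4* and *Fabp5* per kb, *Fabp3* took 0.00216%, 0.00242% and 0.0351% in Atf4WT mice at RT and 0.983%, 1.39% and 0.837% after cold exposure. In Atf4AKO mice it took 0.00156% to 0.00224% at RT and 0.803%, 2.00% and 0.885% after cold exposure. *Fabp4* took 95.6% to 98.3% in the 12 libraries, so the small share of *Fabp3* rose beside an adipocyte form that remained dominant. *Fabp5* took 1.70% to 2.34% at RT and 2.87% to 3.50% in the cold in Atf4WT mice, and 1.78% to 3.26% and 2.45% to 3.48% in Atf4AKO mice. With exons of all annotated transcripts, some of which keep introns of *Fabp4* and *Fabp5*, the mean share of *Fabp3* in the cold was 5.08% in Atf4WT and 5.75% in Atf4AKO mice, and 0.0658% and 0.00963% at RT.

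Between the genotypes, 0 of the 10 genes were called after cold exposure, at RT or for the difference of the cold responses, for which limma called 0% of all tested genes. At an unadjusted p-value under 0.05 (limma) the count of these genes was also 0 in each of the 3 comparisons. Over all 13404 genes tested it was 1571 after cold exposure, 205 at RT and 928 for the difference of the responses. edgeR and DESeq2 called 0 of the 10. Of all tested genes edgeR called 3, 1 and 0 in the same order, and DESeq2 590, 5 and 132. With only 10 genes, a count of 0 beside these says little about the genotype. The gene of the 10 nearest to a call was *Cd36* after cold exposure, with a log2 fold change of 0.32 (95% interval −0.02 to 0.66, unadjusted p = 0.0610, adjusted p = 0.451). It fell to 0.06 with the lymphocyte score as a covariate, a score that did not overlap between the cold groups. After cold exposure 9 of the 10 log2 differences were above 0, from 0.09 for *Fabp5* to 0.41 for *Angptl4* (−0.35 to 1.18), with −0.01 for *Gpihbp1*. The median of the 10 was 0.17, beside 0.05 over all tested genes, and the share of all tested genes above 0 was not counted. With the lymphocyte score as a covariate, *Lpl* (−0.34), *Fabp4* (−0.43), *Fabp5* (−0.56) and *Vldlr* (−0.21) were below 0. *Cd36*, *Fabp3*, *Slc27a1*, *Slc27a2* and *Angptl4* remained above 0.

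The 95% intervals of the difference after cold exposure were −0.31 to 0.54 for *Slc27a1*, −0.35 to 0.90 for *Slc27a2*, −0.40 to 0.59 for *Fabp5* and −0.63 to 0.82 for *Fabp4*. That of *Fabp3* was −1.64 to 2.04, which leaves differences of several fold undetectable with these libraries. At RT *Fabp3* differed by −1.49 (−3.33 to 0.35), by −0.32 without Atf4WT RT replicate 2 and by −2.62 with either edgeR or DESeq2. The cold response of *Fabp3* in Atf4AKO minus that in Atf4WT mice was 1.69 (−0.91 to 4.29, adjusted p = 0.969), and it was 0.52 without this library and 0.02 without the 3 libraries of highest muscle score. The same difference was larger with edgeR (2.95), DESeq2 (2.93) and the lymphocyte score as a covariate (3.68), with adjusted p-values of 0.728, 0.531 and 0.935. For *Slc27a2* the difference of the responses was 0.62 (−0.27 to 1.51) and for *Slc27a1* it was −0.02 (−0.62 to 0.58). *Angptl4* was called higher in cold Atf4AKO than in cold Atf4WT mice, with a log2 difference of 1.06 (adjusted p = 0.0414), when the 3 libraries of highest muscle score were left out, which left 2 libraries in each of these groups.

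**Figure D4:**
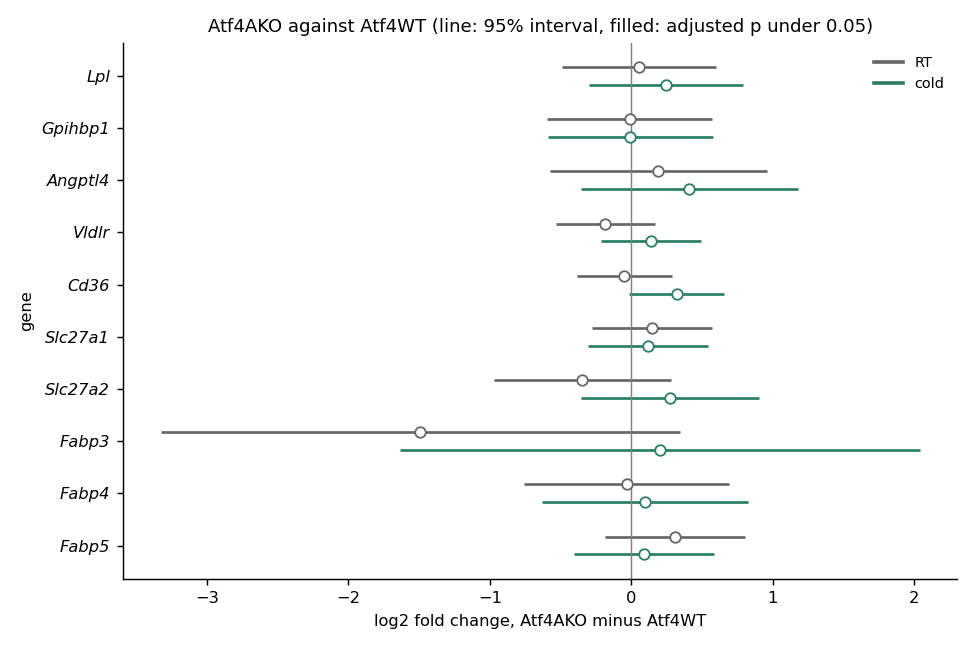
Log2 difference of the 10 genes between Atf4AKO and Atf4WT iWAT at RT (grey) and after cold exposure (green), with points for the limma estimate and lines for its 95% interval. Each interval includes 0, and those of *Fabp3* are the widest.

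Other genes of fatty acid delivery were taken from a list of 66, of which 52 were tested. In Atf4WT mice 10 of the 52 were called higher and 12 lower after cold exposure, and in Atf4AKO mice 11 higher and 9 lower. Over all tested genes, 17% were called higher and 14.9% lower in Atf4WT mice, and 14.8% and 11% in Atf4AKO mice. The counts by role below stand beside the same shares. Between the genotypes, limma called 0 of the 52 in either direction. The median log2 fold change of the list was 0.04 in each genotype. *Mfsd2a*, which encodes a carrier of lysophosphatidylcholine, had the largest change, from 12.8 ± 1.69 to 227 ± 101 in Atf4WT (log2 fold change 3.96, adjusted p = 7.16e-05) and from 16.2 ± 3.0 to 476 ± 192 in Atf4AKO mice (4.72, adjusted p = 3.18e-05). Of 8 regulators tested, 2 were called higher and 2 lower in Atf4WT mice, and 2 higher and 1 lower in Atf4AKO mice. The higher ones were *Ppargc1a* and *Ppara*, a coactivator and a nuclear receptor that drive fatty acid oxidation genes. On the log2 scale they rose by 2.01 and 1.27 in Atf4WT and by 2.57 and 1.74 in Atf4AKO mice. *Apoc2*, the cofactor that activates lipoprotein lipase, was 11.99 ± 8.17 at RT and 71.0 ± 7.28 after cold exposure in Atf4WT mice, and 23.4 ± 9.19 and 80.6 ± 19.9 in Atf4AKO mice. *Apoc2* was called higher in both. Both *Apoc2* and *Mfsd2a* had few counts at RT, which limits how well the size of their fold changes is known. Of 5 apolipoprotein genes tested, 2 were called higher in Atf4WT and 1 in Atf4AKO mice. The other in Atf4WT mice was *Apoc3*, which was named after its values were seen. Its log2 fold change was 0.93 (adjusted p = 0.0389, limma) in Atf4WT and 0.26 (adjusted p = 0.559) in Atf4AKO mice.

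The caveolae and Cd36 traffic genes were called lower more often than higher after cold exposure, with 5 of 8 called lower and 1 higher in Atf4WT and 4 lower and 1 higher in Atf4AKO mice. Caveolae are membrane pits rich in fat cells and endothelium, and their coat gene *Cav1* fell by 0.85 in Atf4WT (66494 ± 6145 to 37020 ± 4019) and by 0.51 in Atf4AKO mice (adjusted p = 0.0359) on the log2 scale. *Cav2* fell by 0.83 and 0.48, and *Cavin3* fell by 1.40 and 0.90. *Cavin1* had 32503 ± 910 counts at RT and 19041 ± 4891 after cold exposure in Atf4WT mice, and 34835 ± 2591 and 19779 ± 2976 in Atf4AKO mice. The exception was *Zdhhc5*, an enzyme that palmitoylates CD36, which rose by 0.41 in Atf4WT and 0.60 in Atf4AKO mice. The summed count of the endothelial markers above was lower after cold exposure in both genotypes. The median log2 fold change of these 17 genes was −0.17 in Atf4WT and −0.04 in Atf4AKO mice. The summed count of 10 fibroblast and progenitor genes was also lower, at 129345 to 157679 in Atf4WT mice at RT and 37284 to 88237 after cold exposure, and at 126504 to 186371 and 33995 to 78873 in Atf4AKO mice, with 2 and 3 of the 10 genes called lower. The part of either cell type in the change was not tested.

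Among the lipoprotein receptors, *Lrp1*, a receptor for lipoprotein remnants, fell by 0.86 and 0.61 on the log2 scale, and *Lrpap1*, its chaperone, fell by 0.67 and 0.69. *Pcsk6*, a protease that can cleave lipases, fell by 1.07 and 0.74. Of 5 acyl-CoA synthetase genes tested, which trap fatty acids in the cell as CoA esters, 2 were called higher in Atf4WT and 3 in Atf4AKO mice. *Acsl4* was in both counts, and *Acsl1*, which was named after its values were seen, had means of 71793 ± 15808 and 112258 ± 14624 in Atf4WT mice and 83330 ± 18275 and 136085 ± 7661 in Atf4AKO mice. Of the other FATP genes tested, *Slc27a4* was called higher, by 0.36 in Atf4WT and 0.41 in Atf4AKO mice on the log2 scale. *Slc27a3* and *Slc27a6* were not called in either genotype. These FATP genes were also named after their values were seen. Of the other binding protein genes tested, 0 of 6 were called higher and 1 lower in each genotype. The FABP genes *Fabp7*, *Fabp9* and *Fabp12* were near the lower end of detection, with group means of 2.71 to 12.6.

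**Figure D5:**
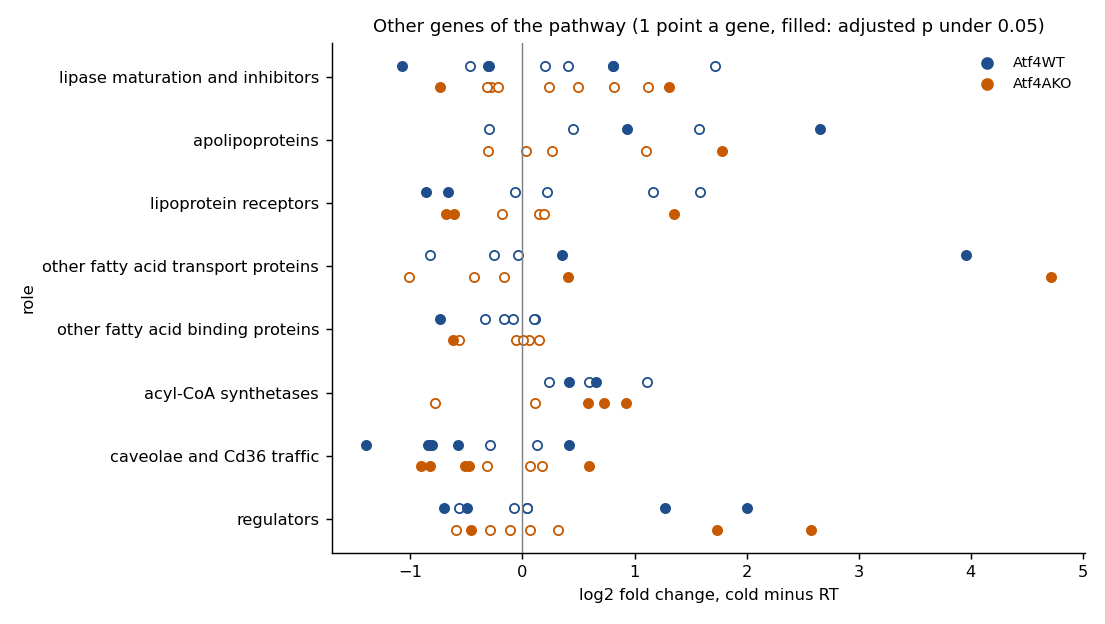
Log2 fold change between cold exposure and RT of the 52 other tested genes of fatty acid delivery by role, with 1 point a gene for Atf4WT (blue) and Atf4AKO (orange) iWAT and filled points for adjusted p-values under 0.05. The points at 3.96 and 4.72 are *Mfsd2a*, and the filled points of the caveolae and Cd36 traffic genes lie below 0 except for *Zdhhc5*.

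Patterns were compared by the root mean square difference of centred log2 values over the 12 libraries. For each of the 10 genes, the most similar genes outside the 10 are given. For *Fabp3* these were *Elovl3* at 1.53 and *Ucp1* at 1.62, where the log2 values of *Fabp3* spanned 11.1. *Elovl3*, a fatty acid elongase of brown fat, was 18.0 and 3320 at RT and after cold exposure in Atf4WT mice, and *Ucp1*, the uncoupling protein, was 443 and 81029. For *Slc27a2* they were *Gk* (glycerol kinase, 0.38) and *Slco4a1* (0.39), for *Fabp5* *Coa7* (0.17) and the lipid droplet gene *Plin2* (0.17), and for *Slc27a1* *Xrcc3* (0.19) and *Cdc25a* (0.20). For *Fabp4* they were *Ndufa3* and *Uqcr11* (both 0.12), subunit genes of the respiratory chain, and for *Angptl4* *Pck1* (0.19), which encodes an enzyme of glyceroneogenesis, and *Mrc2* (0.23). For *Lpl* they were *Gstz1* (0.07) and *Yif1a* (0.08), for *Gpihbp1* *Gstt2* (0.10) and *Fam189a2* (0.14), for *Cd36* *Osgepl1* and *Fbxo8* (both 0.08), and for *Vldlr* *Tmem38b* (0.11) and *Rnf214* (0.12). Of the 6 genes without a call, 5 had a log2 range of at most 1.16 over the libraries.

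Promoter windows of RefSeq (GRCm38.p6) were available for 5 of the 10 genes, in 8 windows, and the 250 bases before the start were searched on both strands. The motifs were the nuclear receptor half-site AGGTCA, its direct repeat with 1 base between, the C/EBP-ATF element TGATGNAA and the full cAMP response element. The half-site occurred in 14.0% of all 32851 windows and in those of *Slc27a2* and *Cd36*. The C/EBP-ATF element occurred in 3.45% of all windows and in those of *Fabp3* and *Vldlr*. The direct repeat and the cAMP response element occurred in 0.0335% and 1.55% of all windows and in 0 of the 8. The 30 bases around each match are given on the strand of the gene, with the match in capitals, because 1 gene of each pair rose after cold exposure and the other was not called. All 4 matches read on the opposite strand. The starts of the matches were 51, 200, 220 and 228 bases before the RefSeq start, at chr4:130308676-130308705, chr19:27216809-27216838, chr2:126552792-126552821 and chr5:17836107-17836136.
*Fabp3*: gtgtgggccacTTTCATCAtgtgatgcgag
*Vldlr*: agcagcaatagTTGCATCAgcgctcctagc
*Slc27a2*: gcaccacgccttTGACCTtttcaacgtggg
*Cd36*: ctctgcactttaTGACCTgagattttcagg
In GENCODE, the matches of *Fabp3*, *Slc27a2* and *Vldlr* lie in first exons that begin upstream of the RefSeq start, and that of *Cd36* lies inside longer transcripts of the gene. The matches are letters in a window and say nothing of binding.

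The strand setting of the counting is not given in the sources used here, so antisense reads cannot be told apart from those of these genes. In GENCODE, exons of *Fabp3* share 80 bases with *Gm10570* and 81 bases with *Zcchc17*, and exons of *Slc27a2* share 419 bases with *Gm26697*, all on the opposite strand. *Zcchc17* was 978 and 1034 at RT and after cold exposure in Atf4WT mice and 1018 and 1056 in Atf4AKO mice, and the other overlapping genes were not analysed here.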

How the data were processed

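Polyadenylated RNA of iWAT was sequenced from strand-specific libraries of Atf4WT and Atf4AKO mice at RT and after cold exposure for 24 h, with 3 replicates in each of 4 groups. Per the labels and methods, the authors filtered reads with SOAPnuke, aligned them to mm10 (STAR), summed unique alignments over genes (featureCounts) and scaled the sums in pyDESeq2. Their versions are not given in the sources used here. The values the authors deposited are a normalized signal, which is the reads of a gene divided by a DESeq2 size factor. Dividing by the smallest value of each library returned whole reads for 100% of the values, within 0.000313 reads. All 14159 genes of the table have a read in every library.

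Testing used limma 3.58.1 under R 4.3.3 (lmFit, eBayes with a trend) on log2(normalized count + 1). A minimum mean of 10 left 13404 genes and removed 755. A fold change on this scale understates the change of low genes. The model held 4 group means, the adjusted p-values are those of Benjamini and Hochberg over all tested genes, and the threshold was 0.05. edgeR 4.0.16 and DESeq2 1.42.0 on the recovered reads were alternatives, because the values are normalized. Other alternatives were pseudocounts of 0.5 and 5, no filter or one at 50, the 2 groups compared alone, a common 75th percentile, array weights, the replicate block, lymphocyte and muscle scores as covariates, leaving out each library, and the rule of the study (fold change over 1.5, unadjusted p-value under 0.05). Scripts were tested on simulated data. The chi-square between replicates, per degree of freedom, was 34.5 to 69.8, which is above sampling noise.

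The members and lists were chosen with earlier results of these data known. All 10 members were named. Of the pathway list, up to 6 genes higher and 6 lower with the smallest adjusted p-value were named for each comparison. For each member, the 2 genes of most similar pattern outside the members were named. One gene that this rule names is not reported here. Motifs were chosen after values were seen. Positions and lengths came from GENCODE vM21. Other steps ran in Python 3.11.15 (matplotlib 3.10.9, numpy 2.4.6, pandas 2.3.3).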

Additional observations from a re-analysis of the deposited data

How the results depend on the processing

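The counts of members called higher or lower in the 5 comparisons remained within 1.5 times the reported value under each alternative, with 1 exception. Without the 3 libraries of highest muscle score, a choice made after seeing the data, 1 member (*Angptl4*) was called higher in cold Atf4AKO than in cold Atf4WT mice in place of 0. Leaving out 1 library at a time gave 4 members called higher by cold exposure in Atf4WT mice and 3 to 4 in Atf4AKO mice, and 0 between the genotypes. DESeq2 gave 5 in each genotype, with *Fabp4* added. No direction was reversed in a called value. With exons of all annotated transcripts, the mean share of *Fabp4* among the FABP genes was 97.1% and 96.4% at RT and 90.9% and 90.2% after cold exposure in Atf4WT and Atf4AKO mice, and that of *Fabp5* was 2.82% and 3.62%, then 4.07% and 4.08%. Over all genes, the count called between the cold genotypes was 4 with limma, 3 with edgeR, 590 with DESeq2, 189 with the replicate block and 485 without the 3 libraries, and the count for the difference of the cold responses was 0 with limma and edgeR, 132 with DESeq2 and 270 without the 3 libraries. The cause was not tested. The replicate block left the members called at 4 in each cold comparison and 0 between genotypes. Per the methods, Atf4WT mice were littermate controls, but neither the methods nor the labels say which libraries share a litter or batch. The numbers were therefore not taken to pair libraries. Correlations of the deviations went below 0 for number 0 (−0.18 to 0.10) and number 2 (−0.19 to 0.37). They were 0.18 to 0.39 for number 1, and 6 of the 12 libraries correlated best with their own number, so a shared litter or batch was not settled. With 5 to 10 reads for *Fabp3* in most RT libraries, the depth limits the size of its fold change.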
